A study of Mus musculus with 9 samples.

Results

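The E2F transcription factors and the retinoblastoma (pocket) proteins were followed as 10 genes in pancreatic neuroendocrine tumors and normal islets of the mouse. They were taken by name: the activators E2f1, E2f2 and E2f3, the repressors E2f4, E2f5, E2f6, E2f7 and E2f8, and the pocket protein genes Rb1 and Rbl1 (p107). They are 10 of the 54347 genes listed in the count table, and all 10 are among the 15532 genes that passed the filter of at least 1 CPM in at least 3 of 9 libraries. CPM is the count of a gene relative to the total of its library (counts per 1e+06), after scaling by edgeR's TMM method. RNA was sequenced from 6 tumors, 3 called functional (M1, M2 and M3, whose titles add "Inulin") and 3 non-functional (M4, M5 and M6), and from normal islets in 3 libraries (NI1, NI2 and NI3). M2 came from a female and the other 8 libraries from males. The tumors arose in INS-p25OE mice, which carry Ins2-rtTA and tetOp-p25GFP, so that doxycycline turns on p25, an activator of the kinase Cdk5, in cells where the insulin promoter is active. The study kept its mice on the C57BL/6 background, gave doxycycline in drinking water from weaning at 3 to 4 weeks of age, and used transgene-negative littermates as controls. The islet libraries are labelled C57BL/6 and beta islets. The age at collection is not given in the sources used here.

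E2F proteins bind DNA together with a DP partner and control the genes a cell needs to enter and pass through S phase. In a resting cell the pocket proteins hold the activators silent and, with E2F4 or E2F5, recruit co-repressors to the same promoters. When cyclin-dependent kinases phosphorylate the pocket proteins, the activators are released and E2F targets are transcribed, several E2F genes and Rbl1 among them. E2F6 represses without pocket proteins as part of a Polycomb complex, and E2F7 and E2F8 bind without DP and shut targets off later in the cycle. Adult beta cells divide rarely, and loss of RB1 is known from poorly differentiated neuroendocrine carcinomas.

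Before the members are described, 1 library needs naming. The transgene product is a fragment of p35, the protein of Cdk5r1, and Cdk5r1 stood at 149 to 401 CPM in the 6 tumors, 18.4 CPM in NI2 and 12.5 CPM in NI3. The library labelled NI1 had 280 CPM, a tumor level that goes against its islet label. Among the 36 pairs of libraries, M6 and the library labelled NI1 were the closest, at a distance of 39.6 on log2(CPM + 1) over all tested genes, against 60.1 for NI2 and NI3 and 84.8 for the next pair. The library labelled NI1 lay inside the range of the tumors for 86.1% of all tested genes and for 7 of the 10 members, all but E2f2, E2f7 and E2f8. The share for NI2 or NI3 was not taken. For Rb1 both NI2 and NI3 also lay inside the tumor range, and for E2f6 NI2 did. For acinar markers (a sum of 689 CPM, against 1.13 to 375 CPM in tumors), lymphoid markers (141 CPM, against 4.66 to 99.2 CPM) and immediate-early genes (974 CPM, against 279 to 465 CPM) it lay outside the tumor range, towards NI2 and NI3. Whether it mixes RNA of islets and tumor was not tested. The members' tests of tumors against islets are therefore given with and without the library labelled NI1, and also without M6, its nearest tumor library. Library totals ran from 36468280 to 63637175 counts, and mitochondrial genes took 32.1% of the counts in M4 against 1.76% to 8.41% in the others. The smallest count of any member in any library was 47, for E2f7 in NI3, and a count of 3 stood for 0.042 to 0.119 CPM, so no member was near the limit of detection. In bulk RNA, fewer cells of a type and less RNA per cell cannot be told apart. The paper states that its sample sizes count biological replicates, while the labels do not name the animal of each library. The p-values measure the spread between these libraries.

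In tumors against NI2 and NI3, all 3 activators, both atypical repressors E2f7 and E2f8, and Rbl1 were higher, E2f5 was lower, and E2f4, E2f6 and Rb1 did not pass the test. Fold changes ran from 2.59 for E2f3 to 10.8 for E2f7 in the ratio of mean CPM. Of the 10 members, 6 were called higher and 1 lower by edgeR's quasi-likelihood test at a Benjamini-Hochberg adjusted p under 0.05, where 5.34% of all tested genes were called higher and 3.17% lower. Without M6 as well, 6 members were called higher and 0 lower, against 5.75% and 3.59% of all genes, and E2f5 was the member lost (adjusted p = 0.0508). With all 9 libraries edgeR called none of the members, 0 higher and 0 lower, where it called 0% of all genes higher and 0.258% lower. In that fit 6 members with a positive and 1 with a negative difference had an unadjusted p under 0.05, against 10.7% and 9.14% of all genes. DESeq2 on the 9 libraries called 3 members higher and 0 lower, namely E2f2, E2f7 and E2f8, against 4.92% and 3.14% of all genes.

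With other tools, filters and scalings, a replicate block and libraries left out (17 settings in all), the adjusted p of a member moved widely. It ranged from 4.18e-07 to 0.637 for E2f1, from 1.61e-05 to 0.582 for E2f2, from 0.000293 to 0.694 for E2f3, from 1.75e-08 to 0.583 for E2f7, from 2.85e-05 to 0.582 for E2f8, from 7.09e-07 to 0.630 for Rbl1 and from 0.000325 to 0.632 for E2f5. For E2f4 (0.262 to 0.893), E2f6 (0.160 to 0.801) and Rb1 (0.664 to 0.962) it was above 0.05 in every setting.

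**Figure D1:**
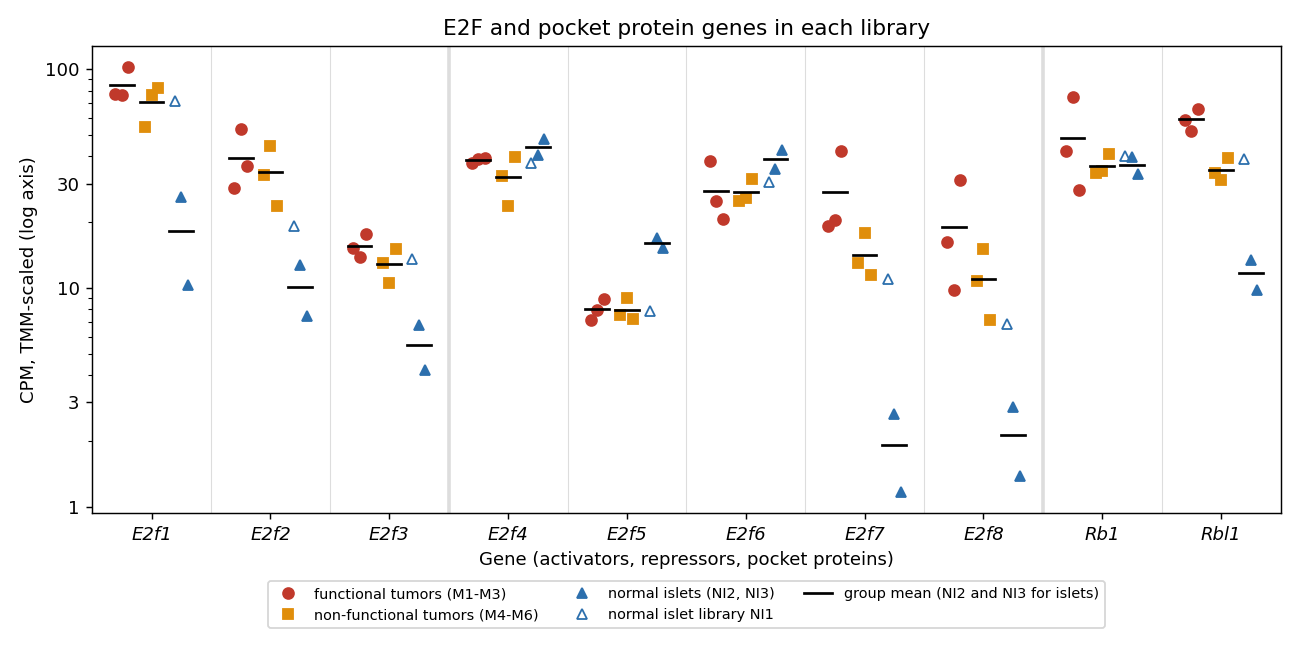
CPM (TMM-scaled, log axis) of the 10 genes in each library, with 1 point a library, functional tumors as circles, non-functional tumors as squares, islets as triangles and the library labelled NI1 as an open triangle. Bars are group means, taken over NI2 and NI3 for islets; E2f1, E2f2, E2f3, E2f7, E2f8 and Rbl1 sit above NI2 and NI3 in all 6 tumors, and the open triangle sits with the tumors for most genes.

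E2f1, the best known activator and itself an E2F target, was the member with the highest level per kilobase of exon in tumors, and lies on chromosome 2 of GRCm38 from 154559407 to 154569892 on the minus strand. It stood at 76.9, 76.0 and 102 CPM in M1, M2 and M3, at 54.7, 76.4 and 82.6 CPM in M4, M5 and M6, and at 71.6, 26.0 and 10.3 CPM in the library labelled NI1, NI2 and NI3. Every tumor was above NI2 and NI3, and the library labelled NI1 was inside the tumor range. On the log2 scale E2f1 differed by 1.12 (SE 0.49, adjusted p = 0.240, edgeR) with all 9 libraries, 2.10 (SE 0.38, adjusted p = 0.0143) without the library labelled NI1, and 2.09 (adjusted p = 0.0186) without M6 as well.

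E2f2 (chromosome 4, 136172394 to 136196057, plus strand), the second activator, was the only activator whose tumor and islet libraries as labelled did not overlap. Its levels were 28.7, 53.2 and 36.1 CPM in M1 to M3, 33.0, 44.9 and 23.6 CPM in M4 to M6, and 19.2, 12.8 and 7.43 CPM in the library labelled NI1, NI2 and NI3. The lowest tumor, M6, was above the highest islet library, the one labelled NI1, by a ratio of 1.23. Its log2 fold change was 1.47 (SE 0.35, adjusted p = 0.139), 1.86 without the library labelled NI1 (SE 0.38, adjusted p = 0.0210) and 1.95 without M6 as well (adjusted p = 0.0151). DESeq2 with all 9 libraries gave E2f2 an adjusted p of 0.00219.

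E2f3 (chromosome 13, 29906575 to 29986063, minus strand), the third activator, had the narrowest range of the 3 among tumors. It was at 15.2, 13.9 and 17.7 CPM in functional tumors and at 13.0, 10.5 and 15.1 CPM in non-functional tumors. In the library labelled NI1, NI2 and NI3 it was at 13.6, 6.76 and 4.24 CPM, so that all tumors were above NI2 and NI3 only. E2f3 had a log2 fold change of 0.80 (SE 0.35, adjusted p = 0.248), 1.37 (SE 0.32, adjusted p = 0.0325) without the library labelled NI1 and 1.36 (adjusted p = 0.0446) without M6 as well.

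E2f4 (chromosome 8, 105297663 to 105305370, plus strand) and E2f5 (chromosome 3, 14578641 to 14606309, plus strand) are the repressors that act with pocket proteins. E2f4 was at 37.4, 39.0 and 39.5 CPM in functional tumors, 32.7, 23.6 and 39.9 CPM in non-functional tumors, and 37.3, 40.5 and 48.2 CPM in the library labelled NI1, NI2 and NI3. All tumors were below NI2 and NI3, by little: the log2 fold change without the library labelled NI1 was -0.33 (SE 0.23, adjusted p = 0.394), -0.36 (adjusted p = 0.382) without M6 as well, and -0.25 (SE 0.20, adjusted p = 0.508) with all 9 libraries. E2f5 was at 7.11, 7.93 and 8.91 CPM in M1 to M3, 7.53, 9.04 and 7.25 CPM in M4 to M6, and 7.88, 17.0 and 15.2 CPM in the library labelled NI1, NI2 and NI3. The tumors were tightly grouped, at a mean of 7.96 CPM (SD 0.83, n = 6), below NI2 and NI3 and around the library labelled NI1. E2f5 had a log2 fold change of -0.74 (SE 0.27, adjusted p = 0.188), -1.01 (SE 0.24, adjusted p = 0.0347) without the library labelled NI1 and -0.99 (adjusted p = 0.0508) without M6 as well. E2f5 overlaps 1810022K09Rik on the opposite strand by 26 bases, and whether the counting used strand is not given in the sources used here.

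E2f6 (chromosome 12, 16810963 to 16839742, plus strand), the repressor of the Polycomb complex PRC1.6, showed no separation of tumors from islets. It stood at 38.0, 25.1 and 20.6 CPM in functional tumors, 24.9, 25.9 and 31.6 CPM in non-functional tumors, and 30.4, 35.2 and 42.6 CPM in the library labelled NI1, NI2 and NI3. M1 was between NI2 and NI3. E2f6 had a log2 fold change of -0.38 (SE 0.21, adjusted p = 0.348), -0.49 (SE 0.24, adjusted p = 0.233) without the library labelled NI1 and -0.53 (adjusted p = 0.233) without M6 as well.

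E2f7 (chromosome 10, 110745439 to 110787384, plus strand) and E2f8 (chromosome 7, 48866429 to 48881596, minus strand), the atypical repressors of late S phase, had the largest differences of the 10 members, although they are classed with the repressors. E2f7 was at 19.2, 20.6 and 42.3 CPM in M1, M2 and M3, at 13.1, 17.8 and 11.5 CPM in M4, M5 and M6, and at 11.0, 2.66 and 1.16 CPM in the library labelled NI1, NI2 and NI3. E2f8 was at 16.2, 9.77 and 31.4 CPM in M1 to M3, 10.8, 15.1 and 7.11 CPM in M4 to M6, and 6.82, 2.85 and 1.39 CPM in the library labelled NI1, NI2 and NI3. For both genes every tumor was above every islet library as labelled, M3 was the highest library, and M6 and the library labelled NI1 lay next to each other at the boundary, with ratios of 1.05 for E2f7 and 1.04 for E2f8. With E2f2 they made 3 of 10 members in which all tumors were above all islet libraries and 0 in which all were below, against 4.5% and 3.17% of all tested genes. Against NI2 and NI3 alone, 6 members were above and 2 below (E2f4 and E2f5), against 16.6% and 16.3%.

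The log2 fold change of E2f7 was 2.07 (SE 0.69, adjusted p = 0.170) with all 9 libraries and 3.44 (SE 0.64, adjusted p = 0.0151) without the library labelled NI1, and that of E2f8 was 2.02 (SE 0.61, adjusted p = 0.161) and 2.83 (SE 0.65, adjusted p = 0.0320). Without M6 as well they were 3.56 (adjusted p = 0.0128) and 2.97 (adjusted p = 0.0209). DESeq2 on the 9 libraries gave adjusted p-values of 0.0191 for E2f7 and 0.00992 for E2f8. E2f8 overlaps Gm2788 on the opposite strand by 3639 bases. Gm2788 was highest in M3, at 2.20 CPM, and was at 0.549, 0.049 and 0.099 CPM in the library labelled NI1, NI2 and NI3. Its part in the counts of E2f8 was not tested.

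Rb1 (chromosome 14, 73183673 to 73325822, minus strand), the gene of the retinoblastoma protein, and Rbl1 (chromosome 2, 157145893 to 157204534, minus strand), the gene of p107, differed in pattern. Rb1 was at 42.4, 74.4 and 28.2 CPM in functional tumors, 33.6, 34.1 and 41.0 CPM in non-functional tumors, and 40.1, 39.8 and 33.4 CPM in the library labelled NI1, NI2 and NI3. M2, the only library from a female, stood apart as the highest, and the other tumors and the islets covered the same range. The log2 fold change of Rb1 was 0.16 (SE 0.29, adjusted p = 0.787), 0.21 (SE 0.35, adjusted p = 0.743) without the library labelled NI1, 0.22 (adjusted p = 0.754) without M6 as well, and -0.08 with all islets but without M2. Rcbtb2 and Lpar6 overlap Rb1 on the opposite strand, by 24171 and 5400 bases.

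Rbl1, a pocket protein gene that E2F itself regulates, was at 58.7, 52.2 and 66.1 CPM in M1, M2 and M3, 33.6, 31.2 and 39.2 CPM in M4, M5 and M6, and 38.9, 13.5 and 9.84 CPM in the library labelled NI1, NI2 and NI3. All tumors were above NI2 and NI3, and M6 and the library labelled NI1 were nearly the same, with a ratio of 1.01. Rbl1 had a log2 fold change of 1.17 (SE 0.44, adjusted p = 0.198), 2.01 (SE 0.36, adjusted p = 0.0143) without the library labelled NI1 and 2.05 (adjusted p = 0.0162) without M6 as well. Rbl2, the gene of the third pocket protein p130, was at 19.5 to 81.5 CPM in tumors and 48.1 to 57.7 CPM in islets, with a log2 fold change of 0.14 (SE 0.42, adjusted p = 0.858) without the library labelled NI1 and 0.12 (adjusted p = 0.890) without M6 as well. The CPM ratio of Rbl1 to Rb1 was 0.701 to 2.35 in tumors and 0.969 in the library labelled NI1, and 0.339 in NI2 and 0.295 in NI3.

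**Figure D2:**
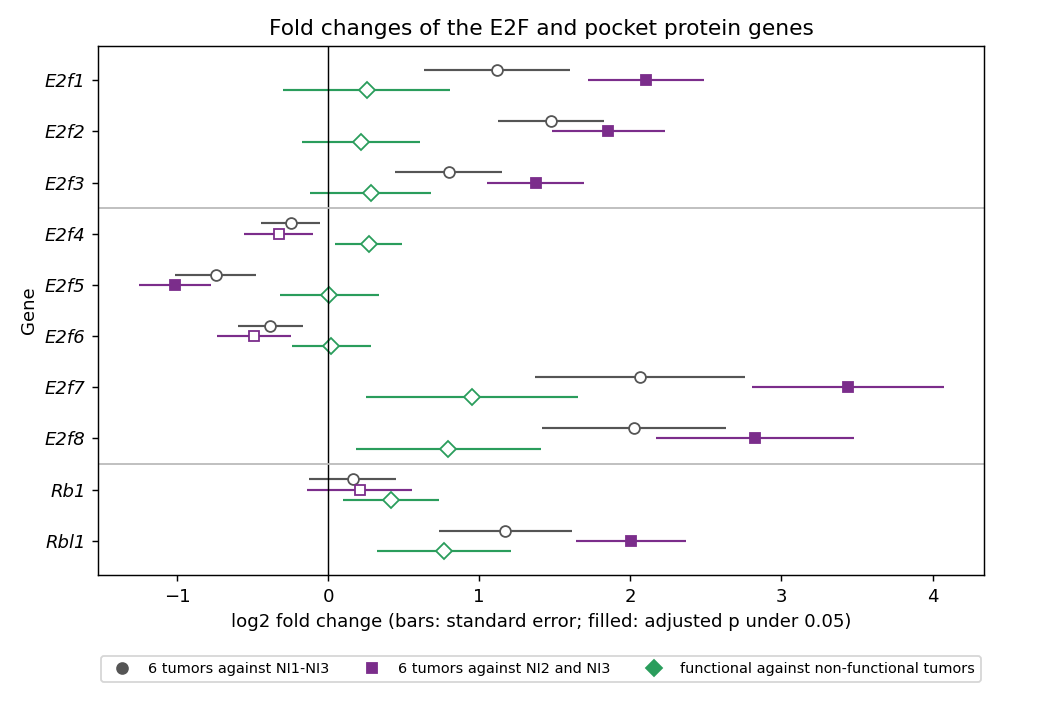
Log2 fold changes (horizontal axis) of the 10 genes (vertical axis) in tumors against all islet libraries (circles), in tumors against NI2 and NI3 (squares) and in functional against non-functional tumors (diamonds). Bars are standard errors and filled symbols have an adjusted p under 0.05 by edgeR; 7 squares, no circles and no diamonds are filled.

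The order of levels between genes was taken per kilobase of exon. Ratios and log2 differences of CPM between genes are not scaled by length, and only their differences between libraries are read. In tumors the order by mean CPM per kilobase was E2f1 at 24.8 (SD 4.84, n = 6), E2f4 at 14.4 (SD 2.58), Rbl1 at 7.81 (SD 2.38), E2f2 at 7.49 (SD 2.22), Rb1 at 7.03 (SD 2.76), E2f6 at 4.89 (SD 1.09), E2f5 at 4.47 (SD 0.47), E2f8 at 2.76 (SD 1.59), E2f3 at 2.62 (SD 0.45) and E2f7 at 2.30 (SD 1.23). E2f1 was above E2f4 in every tumor's value, and each later neighbour overlapped the next in range. In NI2 and NI3 the order opened instead with the repressors E2f4 at 18.1, E2f5 at 9.02 and E2f6 at 6.87 CPM per kilobase. Rb1 at 6.09 and E2f1 at 5.76 came next, and E2f8 at 0.39 and E2f7 at 0.21 closed it. The CPM ratio of E2f1 to E2f4 was 1.67 to 3.23 in tumors, 1.92 in the library labelled NI1, 0.643 in NI2 and 0.215 in NI3.

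For activators against repressors, the mean log2(CPM + 1) of E2f1 to E2f3 minus that of E2f4 to E2f8 was taken in each library, as a description without a test. It was 0.66, 1.10 and 0.67 in M1, M2 and M3, 0.85, 0.92 and 0.99 in M4, M5 and M6, and 0.81, 0.12 and -0.50 in the library labelled NI1, NI2 and NI3. The tumors averaged 0.86 (SD 0.17, n = 6) and the islets 0.14 (SD 0.65, n = 3), a difference of 0.72, which was 1.05 without the library labelled NI1. The 5 repressors did not move as a group: the median log2 fold change without the library labelled NI1 was -0.33 over them, with 2 called higher and 1 lower, and 1.86 over the activators, with 3 of 3 called higher. Over all tested genes that median was 0.05.

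Split by type, the activators minus E2f4, E2f5 and E2f6 gave 0.53 to 1.02 in tumors, 0.33 in the library labelled NI1, -1.07 in NI2 and -2.04 in NI3. All 6 tumors were thus higher in this difference than NI2 and NI3. The activators minus E2f7 and E2f8 gave 0.15 in M3, up to 1.67 in the other tumors, 1.52 in the library labelled NI1, 1.92 in NI2 and 1.80 in NI3. Here the tumors were lower than NI2 and NI3, since the atypical repressors differed by more than the activators did. The mean of E2f7 and E2f8 was 2.54 higher in tumors than in NI2 and NI3 on the log2 scale, that of the activators 1.72 higher, and that of E2f4, E2f5 and E2f6 0.59 lower (-0.59).

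**Figure D3:**
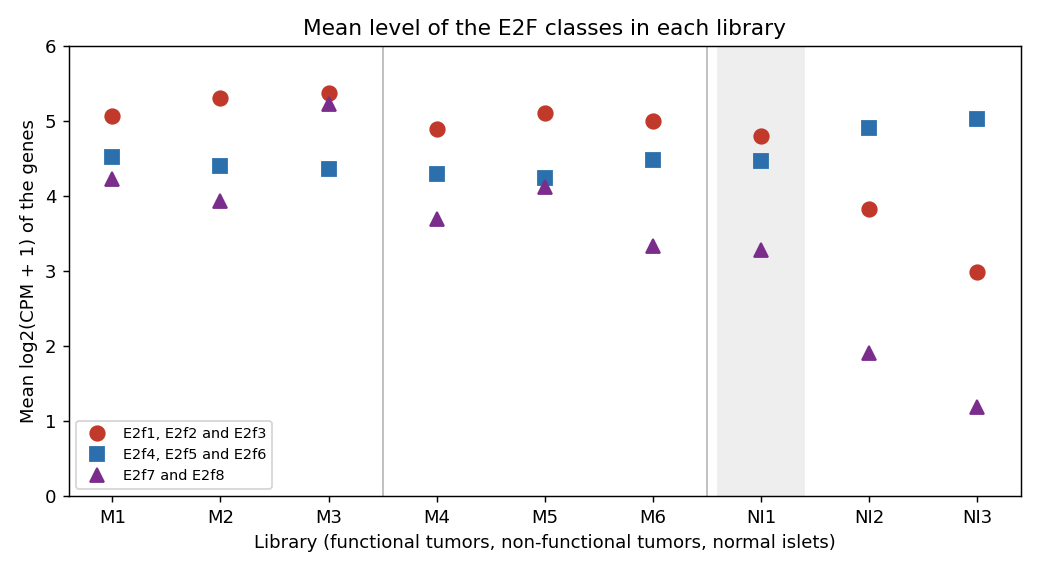
Mean log2(CPM + 1) of the activators (circles), of E2f4, E2f5 and E2f6 (squares) and of E2f7 and E2f8 (triangles) in each library, with the library labelled NI1 on a grey band. Circles and triangles are higher, and squares lower, in the 6 tumors than in NI2 and NI3, and triangles range from 1.18 in NI3 to 5.23 in M3. Values are not scaled by gene length, so the heights of different symbols cannot be compared.

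Several members hold an E2F word in the RefSeq promoter window, which runs from 250 bases before to 50 bases after a transcription start. The words TTTCCCGC, TTTCGCGC, TTTGCCGC and TTTGGCGC were searched on both strands. RefSeq windows of the GRCm38.p6 build were at hand for 7 of the 10 members, and 4 of the 7 held a word (Rbl1, E2f2, E2f3 and E2f7), against 744 of 32851 windows (2.26%) and 508 of the 11404 tested genes with a window (4.45%). These 4 are printed because they hold a word and were higher in tumors than in NI2 and NI3. E2f1 and E2f8 were also higher in tumors than in NI2 and NI3, but their windows held no word and are not printed. The sequences run 5′ to 3′ on the strand of the gene, with the word in capitals. For Rbl1, E2f3 and E2f7 the 250 bases before the start are shown (Rbl1 chr2:157204535-157204784 and E2f3 chr13:29986064-29986313 on the minus strand, E2f7 chr10:110745189-110745438 on the plus strand), and for E2f2, whose word lies after the RefSeq start, 30 bases around it (chr4:136172293-136172322, plus strand).
Rbl1: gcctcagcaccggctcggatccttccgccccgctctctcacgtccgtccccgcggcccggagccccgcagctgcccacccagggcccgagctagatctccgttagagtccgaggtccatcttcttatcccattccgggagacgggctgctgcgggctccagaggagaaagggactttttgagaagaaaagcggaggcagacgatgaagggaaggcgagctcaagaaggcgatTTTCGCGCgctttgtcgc
E2f3: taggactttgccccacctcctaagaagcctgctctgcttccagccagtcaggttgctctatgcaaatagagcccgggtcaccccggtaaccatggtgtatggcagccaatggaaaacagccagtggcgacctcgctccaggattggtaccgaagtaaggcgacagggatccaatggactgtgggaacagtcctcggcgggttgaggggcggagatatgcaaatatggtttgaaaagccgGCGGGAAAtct
E2f7: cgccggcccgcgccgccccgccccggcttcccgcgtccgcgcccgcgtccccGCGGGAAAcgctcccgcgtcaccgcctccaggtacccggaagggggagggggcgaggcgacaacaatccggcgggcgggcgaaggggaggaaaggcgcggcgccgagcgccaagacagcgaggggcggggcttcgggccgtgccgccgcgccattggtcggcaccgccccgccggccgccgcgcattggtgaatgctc
E2f2: ccgaatttggcggcatatagTTTGGCGCta
The word of Rbl1 begins 18 bases and that of E2f3 11 bases before the start, that of E2f7 198 bases before it, and that of E2f2 39 bases after it. The words of E2f3 and E2f7, GCGGGAAA, are TTTCCCGC read on the other strand. The windows of E2f1, E2f6 and E2f8 held none of the 4 words, nor did the windows of a second RefSeq start of E2f2 and of E2f3. The RefSeq start of E2f1 lies 466 bases inside the GENCODE gene, so that its window does not reach the bases before the GENCODE start. For E2f2 the RefSeq start (136172274) lies before the GENCODE gene start (136172394), and so does the whole stretch printed, its word included. A match is a run of letters and was not tested as a binding site.

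The same genes were compared between functional tumors, the term for neuroendocrine tumors that raise the level of a hormone in blood plasma, and non-functional ones. The RNA of a tumor does not measure that plasma level. The groups follow the titles, which add "Inulin" for M1, M2 and M3, read with the paper. The titles do not name a tumor as functional or not, while the paper lists M1 to M3 as functional and M4 to M6 as non-functional. Ins2, the insulin gene, was at 57492, 9544 and 7313 CPM in M1, M2 and M3 and at 39104, 61737 and 88719 CPM in M4, M5 and M6, so its mean was lower in the tumors called functional (log2 fold change -1.35, SE 1.22, adjusted p = 0.725). Rbl1 had a mean of 59.0 CPM (SD 6.96, n = 3) in functional against 34.7 CPM (SD 4.13, n = 3) in non-functional tumors, and E2f7 27.4 CPM (SD 12.9) against 14.1 CPM (SD 3.29). For these 2 genes the 3 functional tumors were all above the 3 non-functional ones, and for 0 members all below, against 8.77% and 6.24% of all tested genes. Neither passed the test: the log2 fold change was 0.77 (SE 0.44, adjusted p = 0.569) for Rbl1 and 0.95 (SE 0.70, adjusted p = 0.656) for E2f7. E2f8 had 0.80 (SE 0.61, adjusted p = 0.675), and the other 7 members lay between 0.01 and 0.41. In this comparison edgeR called 0% of all genes and 0 members, with 10.3% of all genes and 0 members at an unadjusted p under 0.05, and DESeq2 called 0.715% of all genes and 0 members. For E2f5, at 7.98 CPM (SD 0.90) against 7.94 CPM (SD 0.96), the log2 fold change was 0.01 (SE 0.33). The proliferation genes Mki67 (1.00, SE 0.57, adjusted p = 0.567) and Top2a (0.64, SE 0.59, adjusted p = 0.735) also had all functional tumors above all non-functional ones, by little. The lowest functional tumor, M2, and the highest non-functional one, M5, were at 131.3 and 129.6 CPM for Mki67 and at 226.0 and 225.7 CPM for Top2a. Acinar markers summed to 2.32, 25.4 and 1.13 CPM in M1, M2 and M3 and to 51.8, 100.3 and 375 CPM in M4, M5 and M6, and 9 of 10 had an unadjusted p under 0.05. All 8 macrophage markers had a negative log2 fold change, 0 with an unadjusted p under 0.05, and summed to 465, 731 and 588 CPM against 1272, 1018 and 472 CPM. Their part in the values of Rbl1 and E2f7 was not tested.

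The DP partners were read beside the members. Tfdp1, the main partner, was at 119 to 151 CPM in functional tumors, 92.4 to 113 CPM in non-functional tumors, and 98.8, 63.4 and 60.1 CPM in the library labelled NI1, NI2 and NI3. Its log2 fold change was 0.63 (SE 0.22, adjusted p = 0.184), 0.90 without the library labelled NI1 (SE 0.23, adjusted p = 0.0445) and 0.90 without M6 as well (adjusted p = 0.0605). Tfdp2 had 0.37 (SE 0.27, adjusted p = 0.456) 0.67 (SE 0.28, adjusted p = 0.162) without the library labelled NI1 and 0.63 (adjusted p = 0.208) without M6 as well.

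Of 40 S-phase genes known as E2F targets, replication licensing, nucleotide synthesis and DNA repair genes among them, all 40 had a positive log2 fold change in tumors by edgeR. With all 9 libraries edgeR called 0 of them, 29 had an unadjusted p under 0.05, and DESeq2, which gave a p for 34 of them, called 18. Without the library labelled NI1 edgeR called 38 higher and 0 lower, and without M6 as well 37. The median log2 fold change was 1.37 with all libraries and 2.56 without the library labelled NI1, against 0.03 and 0.05 over all tested genes. Their summed level was 1864 to 3283 CPM in tumors, 2037 CPM in the library labelled NI1, and 529 and 446 CPM in NI2 and NI3. Bard1, a partner of Brca1 in DNA repair, had the highest value of the list with all libraries, 2.15 (SE 0.54, adjusted p = 0.147), and 2.90 without the library labelled NI1. Cdc25a, a phosphatase that activates CDKs, had the lowest, 0.03 (SE 0.18, adjusted p = 0.942), with 28.0 to 40.8 CPM in tumors and 30.1 to 34.3 CPM in islets. Of the 32 target genes with a promoter window, 14 held one of the E2F words (43.8%), against 4.45% of the tested genes with a window.

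The regulators upstream and the complexes downstream were mixed. The counts of these lists are read beside the shares of all tested genes. With all libraries edgeR called 0% higher and 0.258% lower, and DESeq2 4.92% and 3.14%. At an unadjusted p under 0.05 in the edgeR fit, 10.7% were higher and 9.14% lower. Without the library labelled NI1 edgeR called 5.34% higher and 3.17% lower. Of 9 G1 cyclins and CDKs, edgeR called 1 lower and 0 higher with all libraries, and 1 lower and 2 higher without the library labelled NI1. The lower one was Ccnd2 (cyclin D2), which with Cdk4 or Cdk6 starts the phosphorylation of pocket proteins. It was at 17.4 to 72.6 CPM in tumors and at 110, 655 and 822 CPM in the library labelled NI1, NI2 and NI3, with a log2 fold change of -3.81 (SE 0.62, adjusted p = 0.0446) -4.29 (adjusted p = 0.00319) without the library labelled NI1 and -4.15 (adjusted p = 0.00460) without M6 as well. Cdk2, the partner of cyclin E, had the highest value, 1.46 (SE 0.44, adjusted p = 0.161), 2.32 (adjusted p = 0.00743) without the library labelled NI1 and 2.37 (adjusted p = 0.00939) without M6 as well.

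Of 7 CDK inhibitor genes, 0 were called with all libraries (4 at an unadjusted p under 0.05, 2 by DESeq2) and 3 were higher without the library labelled NI1. Cdkn2a, which encodes p16 and p19Arf and is a known target of Polycomb repression, had the highest value, 2.94 (SE 1.08, adjusted p = 0.191), 5.53 (SE 1.04, adjusted p = 0.0160) without the library labelled NI1 and 5.70 (adjusted p = 0.0126) without M6 as well. It ranged from 6.78 CPM in M2 to 63.7 CPM in M5, and was at 11.6, 0.903 and 0.545 CPM in the library labelled NI1, NI2 and NI3. Cdkn1c, which encodes p57, had the lowest, -0.03 (adjusted p = 0.979).

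Of 10 co-repressor genes that pocket proteins recruit, 0 were called with all libraries (4 at an unadjusted p under 0.05, 2 by DESeq2) and 3 were higher without the library labelled NI1. Ezh2, the methyltransferase of Polycomb repressive complex 2 and an E2F target, was highest at 1.69 (SE 0.43, adjusted p = 0.148), 2.48 (adjusted p = 0.00591) without the library labelled NI1 and 2.58 (adjusted p = 0.00457) without M6 as well. Hdac2, a histone deacetylase, was lowest at -0.08 (adjusted p = 0.841).

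Of 7 genes of the MuvB core and its partners, 0 were called with all libraries (3 at an unadjusted p under 0.05, 1 by DESeq2) and 2 were higher without the library labelled NI1. Foxm1, which joins MuvB at mitotic genes, was highest at 1.95 (SE 0.52, adjusted p = 0.148), 2.64 (adjusted p = 0.0221) without the library labelled NI1 and 2.77 (adjusted p = 0.0154) without M6 as well, and Lin52 was lowest at -0.02 (adjusted p = 0.962). Of 11 partners of E2F6, edgeR called 0 in either fit, with 3 at an unadjusted p under 0.05 in each, and DESeq2 called 1 with all libraries. Of all tested genes 10.7% were higher and 9.14% lower at that unadjusted p with all libraries, so the 3 are not read as a result about this list. The partners ran from Rnf2 at -0.30 (adjusted p = 0.405) to Pcgf6 at 0.94 (adjusted p = 0.180). Of 6 genes for the degradation of E2F proteins, 0 were called with all libraries (3 at an unadjusted p under 0.05, 3 by DESeq2) and 3 were higher without the library labelled NI1. Among these Ccnf (cyclin F) was highest at 1.84 (adjusted p = 0.148) and Fbxw7 lowest at -0.11 (adjusted p = 0.835). Over the same 17 settings the adjusted p ranged from 1.53e-12 to 0.226 for Ccnd2, 1.47e-09 to 0.582 for Cdk2, 3.63e-12 to 0.590 for Cdkn2a, 3.10e-11 to 0.582 for Ezh2, 2.43e-06 to 0.582 for Foxm1 and 0.00149 to 0.629 for Tfdp1.

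**Figure D4:**
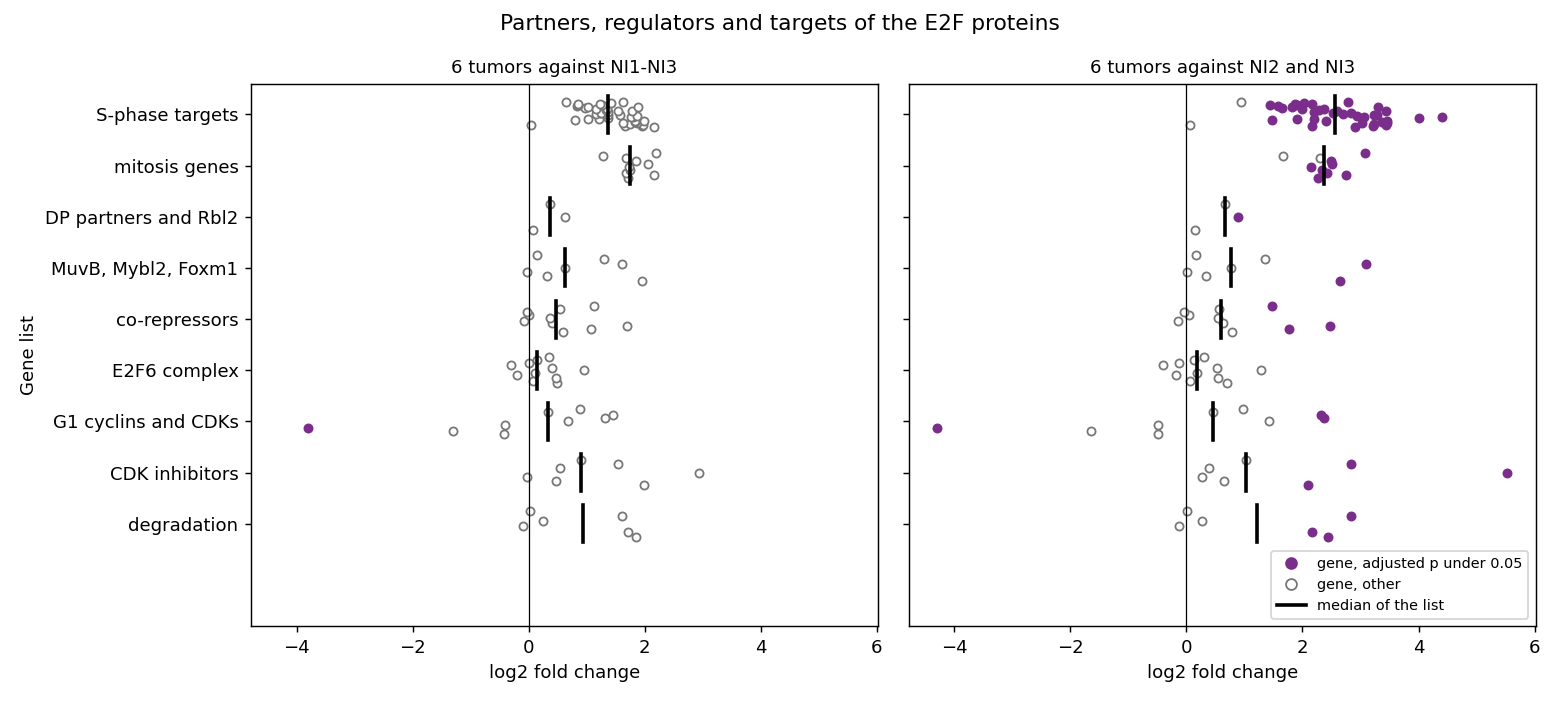
Log2 fold change (horizontal axis) of each tested gene in 9 lists of E2F partners, regulators and targets, against all islet libraries (left) and against NI2 and NI3 (right), with 1 point a gene, filled where the adjusted p is under 0.05, and a bar at the median of the list. On the left 1 point, Ccnd2, is filled, and on the right 38 of the 40 S-phase targets are.

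Proliferation genes were read beside the members. Of 10 mitosis genes, 0 were called with all libraries (10 at an unadjusted p under 0.05, 9 by DESeq2) and 8 were higher without the library labelled NI1. Of all tested genes 10.7% were higher at that unadjusted p, 4.92% were called higher by DESeq2, and 5.34% by edgeR without the library labelled NI1. Among the 10, Top2a, the topoisomerase of dividing cells, was highest at 2.19 (SE 0.57, adjusted p = 0.148) and Plk1, a mitotic kinase, lowest at 1.28 (adjusted p = 0.191). Mki67, the gene of the Ki-67 antigen, was at 183, 131 and 333 CPM in M1, M2 and M3, 111, 130 and 83.7 CPM in M4, M5 and M6, and 85.7, 51.8 and 13.9 CPM in the library labelled NI1, NI2 and NI3. M3 was the highest library for Mki67, as it was for E2f7 and E2f8. The summed CPM of E2f7 and E2f8 was 0.193 to 0.254 of that of Mki67 in tumors, 0.208 in the library labelled NI1, 0.106 in NI2 and 0.184 in NI3. The ratio thus spanned little in tumors while Mki67 itself spanned from 83.7 to 333 CPM. Set against the summed CPM of E2f1, E2f2 and E2f3, E2f7 and E2f8 came to 0.471 in M3 and 0.153 to 0.293 in the other tumors. How much of a member's difference goes with the share of dividing cells was not tested.

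**Figure D5:**
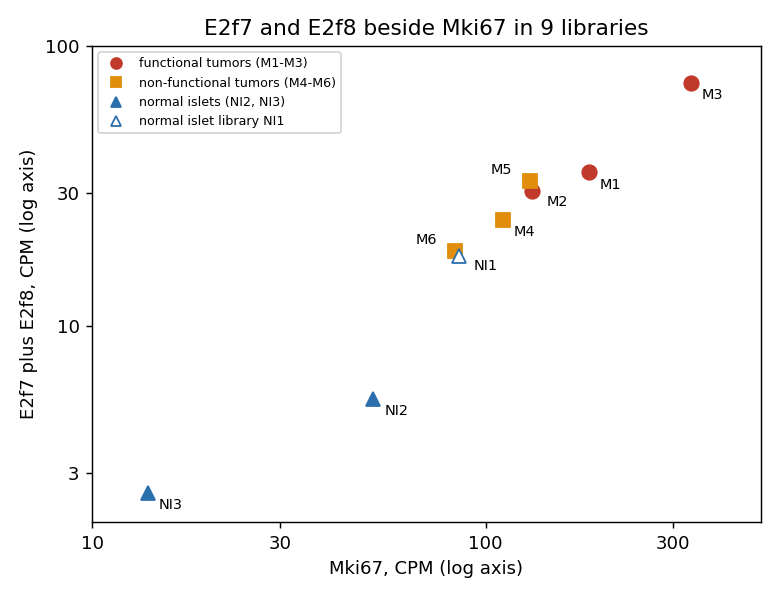
Summed CPM of E2f7 and E2f8 (vertical, log axis) against CPM of Mki67 (horizontal, log axis) in the 9 libraries. The points climb together from NI3 (13.9 CPM of Mki67) to M3 (333 CPM), and M6 and the library labelled NI1 nearly coincide.

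The makeup of the samples also differed. All 8 macrophage markers had a positive log2 fold change and 3 were called higher without the library labelled NI1, where 5.34% of all tested genes were. The summed level of these markers was 465 to 1272 CPM in tumors, 433 CPM in the library labelled NI1 and 189 to 309 CPM in NI2 and NI3. The beta cell list gave a sum of 18883 to 117230 CPM in tumors against 327971 and 365735 CPM in NI2 and NI3, with Ins2 at 7313 to 88719 CPM in tumors. The labelled cell type was thus present in all libraries. Acinar markers summed to 1.13 to 375 CPM in tumors and 875 to 12968 CPM in NI2 and NI3, lymphoid markers to 4.66 to 99.2 against 154 to 158 CPM, and other endocrine markers to 101 to 3139 against 3017 to 18968 CPM. In the library labelled NI1 these sums were 689, 141 and 1081 CPM, and that of the beta cell list was 122391 CPM. Fibroblast markers (18.1 to 195 against 47.2 to 94.4 CPM) overlapped in range, as did endothelial markers (350 to 1092 against 973 to 1071 CPM), and the erythroid sum was 68.2 to 374 against 387 to 388 CPM. Immediate-early genes, which respond to tissue dissociation, were lower in tumors. Of 15, edgeR called 10 lower with all libraries and 12 without the library labelled NI1, against 0.258% and 3.17% of all tested genes. Their sums were 279 to 465 CPM in tumors, 974 CPM in the library labelled NI1 and 1981 to 3422 CPM in NI2 and NI3. The lists' part in the members' values was not tested.

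The genes whose profile was most like that of E2f1, E2f4 and Rb1 were found over the 9 libraries by the root mean square difference of centred log2(CPM + 1), among 15531 other tested genes. For E2f1 they were Dscc1 (0.13), Eppk1 (0.16) and Chek1 (0.19), where the median over genes was 1.04. For E2f4 they were Terf2ip (0.05), Senp6 (0.07) and Oxsm (0.07), with a median of 0.47. For Rb1 they were Nipal1 (0.14), Nmnat1 (0.15) and Wdr25 (0.17), with a median of 0.54. The 9 profiles share all libraries, and the values are a description.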

How the data were processed

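The authors trimmed single-end reads of 75 bases with Trimmomatic 0.38 and quantified transcripts with Salmon 1.4.0 against mm10. The step from transcripts to genes is not given in the sources used here. The deposited table, named for TPM, holds whole-number counts per gene that differ in total between libraries, so the deposited counts were used without rounding. Identifiers were matched to GENCODE M21 for 54094 of 54347 genes, and the 253 others held 0.0121% of the counts.

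After TMM scaling the counts were tested with edgeR 4.0.16 (R 4.3.3; quasi-likelihood test, two-sided), first 6 tumors against 3 islet libraries and functional against non-functional tumors in a fit of 3 groups. P-values were adjusted by Benjamini-Hochberg over 15532 genes, and a gene was called at 0.05. CPM values are TMM-scaled, with a pseudocount of 1 on the log2 scale, and CPM per kilobase uses the union of a gene's exons. A standard error is the log2 fold change divided by the square root of F. The scripts were tested on simulated data.

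The members and gene lists were chosen with earlier results of these data known, and the same holds for the rule of named genes: the 10 members, Tfdp1, Tfdp2 and Rbl2, Cdk5r1, Ins1, Ins2, Mki67 and Top2a, of each list the called genes (at most 4) with the highest and lowest log2 fold change, and the 3 genes most like E2f1, E2f4 and Rb1. Of the marker lists the report gives counts and sums. No set test was run. DESeq2 1.42.0, limma 3.58.1 (voom with library weights), RLE scaling, no filter, removal of mitochondrial genes, another pseudocount, each library left out and a block for the replicate number were other settings tried. DESeq2 without the library labelled NI1, and edgeR without it and M6, were added after seeing the data. A distance is the Euclidean distance of log2(CPM + 1). Library totals of 36468280 to 63637175 counts leave counting error small beside the spread between libraries.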

Additional observations from a re-analysis of the deposited data

Results flagged for a closer look

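Over the 6 tumors, 14 measures (the 10 members, 3 partners and the activator minus repressor level) were searched for a library far from the rest, by whether its gap to the next, divided by the range, was above 0.625. For normally distributed values that do not depend on each other, chance flags about 1 in 20 such groups. The genes were searched as CPM rather than on the log2 scale, and members can move together, so that rate need not hold here. Of the 14 measures 3 were flagged, and no conclusion is drawn from that number. E2f7 stood out at 42.3 CPM in M3, with a gap of 0.705 of the range. E2f8 stood out in the same tumor, at 31.4 CPM, with a gap of 0.626. Rb1 stood out at 74.4 CPM in M2, with a gap of 0.692.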

How the results depend on the processing

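The calls depended on the library labelled NI1 and on the tool. In tumors against islets edgeR called 0 genes higher and 40 lower; no filter gave 6 and 98, DESeq2 764 and 488, limma-voom with library weights 2077 and 2090, DESeq2 without the library labelled NI1 1909 and 1041, edgeR without it and M6 893 and 558, and leaving out 1 library 0 to 829 and 7 to 492, the largest without the library labelled NI1. Without M6 the counts were 81 and 136. Members called higher, 0 in the report's fit, were 3 by DESeq2, 6 by limma-voom, 6 by DESeq2 without the library labelled NI1, 6 without it and M6, and 0 to 6 on leaving out 1 library. Members called lower, 0, were 1 by limma-voom, 1 by DESeq2 without the library labelled NI1, and 0 to 1 on leaving out 1 library. The replicate block gave 12 genes higher and called no member. M4, M5 and M6 share their numbers with no other library, so in that fit only M1, M2 and M3 set the difference from the islets. The correlations of deviations from the group mean, between functional tumors and islet libraries of the same number, were -0.052, 0.030 and -0.159. Each deviation is from a mean of 3 libraries, so these values cannot settle whether libraries of the same number belong together.

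Between functional and non-functional tumors, 0 genes were called; no filter gave 1 higher, DESeq2 22 higher and 89 lower, and leaving out 1 library 0 to 1 higher and 0 lower. The activator minus repressor difference, 0.72, was 1.69 with E2f4 and E2f5 as the only repressors, 1.03 without the library labelled NI1 and M6, and 0.40 to 1.05 on leaving out 1 library, lowest without NI3.

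Of 170 log2 fold changes in tumors against islets recomputed for the members, 139 kept their direction and side of the threshold, 30 passed it, and Rb1 turned, with -0.075 to 0.256 on leaving out 1 library, the lowest without M2. Between tumor kinds 135 of 150 held and 15 turned. On leaving out 1 library E2f2 ran from -0.061 (without M2) to 0.438, E2f5 from -0.079 (without M3) to 0.084, E2f6 from -0.266 (without M1) to 0.198 and Rb1 from -0.039 (without M2) to 0.688. E2f5 was -0.0145 by RLE scaling, -0.0143 by DESeq2, -0.00999 by limma-voom and -0.027 with 6 tumors only, and E2f6 -0.0039 by RLE scaling, -0.00435 by DESeq2 and -0.0142 with 6 tumors only. The cause was not tested. Depth limits little here, since the smallest count of a member was 47.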
